A study of Mus musculus with 7 samples.

Results

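The Slc25 genes encode the mitochondrial carrier family, and they were examined in cultured LLC1 cells, an established line from a mouse Lewis lung carcinoma. Members were taken as every gene of the deposited count table whose symbol is Slc25a followed by a number, which gave 47 of 24419 genes. Polyadenylated RNA was sequenced in 4 wild-type libraries and in 3 libraries of LLC1 cells in which Ddx54, a DEAD-box RNA helicase of the nucleolus, was knocked down with an shRNA. All cells were grown in DMEM with 10% FBS. The labels name neither a control construct in the wild-type cells nor the shRNA sequence, and they do not say whether replicates were separate cultures or whether the knockdown cells are 1 clone. The p-values thus cover only the variation among the 7 libraries, part of which may be technical. In bulk RNA, a lower level in every cell and fewer cells with the transcript cannot be told apart.

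Mitochondrial carriers sit mostly in the inner mitochondrial membrane, which is closed to charged solutes. Each carrier folds from repeated pairs of membrane helices and typically exchanges 1 solute on the matrix side for another outside. In proliferating tumour cells they pass ATP out of the matrix, supply citrate for lipid synthesis, move reducing equivalents through the malate-aspartate shuttle, and bring in iron, glutathione and the cofactors of mitochondrial enzymes. The uncoupling proteins belong to the same family but carry Ucp symbols, so they are not members by the symbol rule.

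Library totals ranged from 14987324 to 18673395 counts. Ddx54 was at 78.6 to 83.2 CPM (counts scaled to library size with TMM factors) in wild-type and at 39.2 to 45.9 CPM in knockdown (log2 fold change -0.90, SE 0.096, adjusted p = 6.55e-09, edgeR quasi-likelihood test), in the direction the labels give. The 5 epithelial markers listed for a carcinoma line (Krt8, Krt18, Krt19, Epcam and Cdh1) summed to 238.5 to 248.1 CPM in wild-type and 148.3 to 168.0 CPM in knockdown. As group means, Krt18 (217 to 132 CPM) and Krt19 (4.39 to 1.08 CPM) fell, and Krt8 was at 20.3 and 23.6 CPM. Epcam and Cdh1 averaged under 0.05 CPM in each group, with at most 0.196 CPM in any library. Of these 5 genes only the keratins had enough counts to be tested. The 6 leukocyte markers summed to 2.18 to 5.03 CPM in wild-type and 2.80 to 4.78 CPM in knockdown, mostly Cd68 with Cd3e at 0, and the 5 endothelial markers to at most 0.78 CPM, with Cdh5, Tie1 and Emcn at 0. The 6 fibroblast markers, mainly Pdgfra, summed to 22.1 to 28.1 CPM in wild-type and 28.6 to 31.8 CPM in knockdown, with Thy1 at 0. The part of these marker changes in the results on carriers was not tested.

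The promoters below belong to the members with the largest rise (Slc25a10) and the largest fall (Slc25a33) of the family, and to Slc25a12 and Slc25a13, close paralogs that rose together. Each is the 250 bases before the RefSeq start site on build GRCm38.p6, 5′ to 3′ on the gene's strand, and capitals mark the E-box CACGTG, the site read by Myc and related factors. Slc25a10 is read from chr11:120491587-120491836 on the plus strand, and the others are on the minus strand, Slc25a12 from chr2:71367756-71368005, Slc25a13 from chr6:6217174-6217423 and Slc25a33 from chr4:149774268-149774517.
Slc25a10: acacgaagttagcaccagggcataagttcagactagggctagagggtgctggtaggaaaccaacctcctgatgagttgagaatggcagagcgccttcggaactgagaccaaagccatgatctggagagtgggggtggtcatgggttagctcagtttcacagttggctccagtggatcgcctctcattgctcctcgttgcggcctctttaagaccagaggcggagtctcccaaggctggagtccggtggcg
Slc25a12: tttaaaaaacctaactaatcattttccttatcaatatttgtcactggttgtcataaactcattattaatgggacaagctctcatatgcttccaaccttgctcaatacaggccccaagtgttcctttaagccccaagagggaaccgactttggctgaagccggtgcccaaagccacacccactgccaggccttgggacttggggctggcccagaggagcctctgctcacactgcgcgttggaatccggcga
Slc25a13: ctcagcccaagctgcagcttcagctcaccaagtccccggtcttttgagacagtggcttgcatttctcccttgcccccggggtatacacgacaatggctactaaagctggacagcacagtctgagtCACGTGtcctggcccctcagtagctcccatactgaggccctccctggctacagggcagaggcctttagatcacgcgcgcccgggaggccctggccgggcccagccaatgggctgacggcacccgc
Slc25a33: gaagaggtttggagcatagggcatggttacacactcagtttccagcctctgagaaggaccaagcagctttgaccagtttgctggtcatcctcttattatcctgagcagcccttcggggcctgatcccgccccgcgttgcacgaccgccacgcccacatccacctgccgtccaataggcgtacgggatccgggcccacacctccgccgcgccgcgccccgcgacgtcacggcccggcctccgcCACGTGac

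RefSeq promoters were found for 36 members in 46 windows, of which 7 members were among the 10 that changed. The E-box lay in 8 of the 46 windows, in 7 genes, and in 6.02% of all 32851 promoter windows of that length, or 8.45% of the 11356 windows of tested genes. Among the changed members it was found in Slc25a13, 125 bases before the start, and in Slc25a33, 8 bases before it, so 1 gene with the motif rose and 1 fell. The motif TGATGNAAT, a composite site of ATF4 and C/EBP factors, was found in 0 of the 46 windows and in 0.38% of the windows of tested genes. The CRE motif TGACGTCA was in 2 windows, against 2.66% of windows of tested genes, and in none of the changed members. The CCAAT box, searched as CCAAT, was in 21 windows, against 35.7%, and the GC box GGGCGG in 32, against 59.1%. The NRF1 motif was in 2 windows, against 8.37%, the ETS motif CCGGAAGT in 1, against 6.24%, and the E2F motif TTTCGCGC in 0, against 0.54%. The 46 windows include those of members not tested, among them Slc25a31 with an E-box and an NRF1 match. The E-box of Slc25a14 is 1 site that overlapping windows share, and it was counted in each. The same holds for a GC box of Slc25a14 and for a CCAAT box and a GC box of Slc25a23. The family windows are thus not strictly like those of tested genes. These 8 motifs were searched on both strands, and overlapping matches of different motifs were each kept. A match is a string of letters and not a shown binding site.

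Of the 47 members, 38 had enough counts to be tested, and 10 changed at an adjusted p under 0.05, against 29.4% of all 11594 tested genes. The 10 were 26.3% of the tested members. Higher in knockdown were 6 members, or 15.8%, against 14.1% of all genes, and lower were 4 members, or 10.5%, against 15.3%. The family as a whole was thus close to the background, and what follows concerns single members. Their median log2 fold change was -0.03, beside 0.001 for all tested genes. Changes of at least 0.5 log2 units were found in 6 members, against 13.9% of tested genes with such a call. The 4 wild-type and 3 knockdown libraries did not overlap for 12 tested members, against 35.1% of tested genes. All 10 changed members were among these 12, as was Slc25a24, which did not pass.

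The share of calls differed with the level. Among the 24 members at 10 CPM or more in wild-type, 9 changed, where the share was 37.5% of all genes at that level. Among the 14 below 10 CPM, 1 changed, where it was 10.7%. The median SE of the log2 fold change was 0.11 in the first set and 0.36 in the second. This error holds both counting error and variation between libraries, and their parts were not separated.

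**Figure D1:**
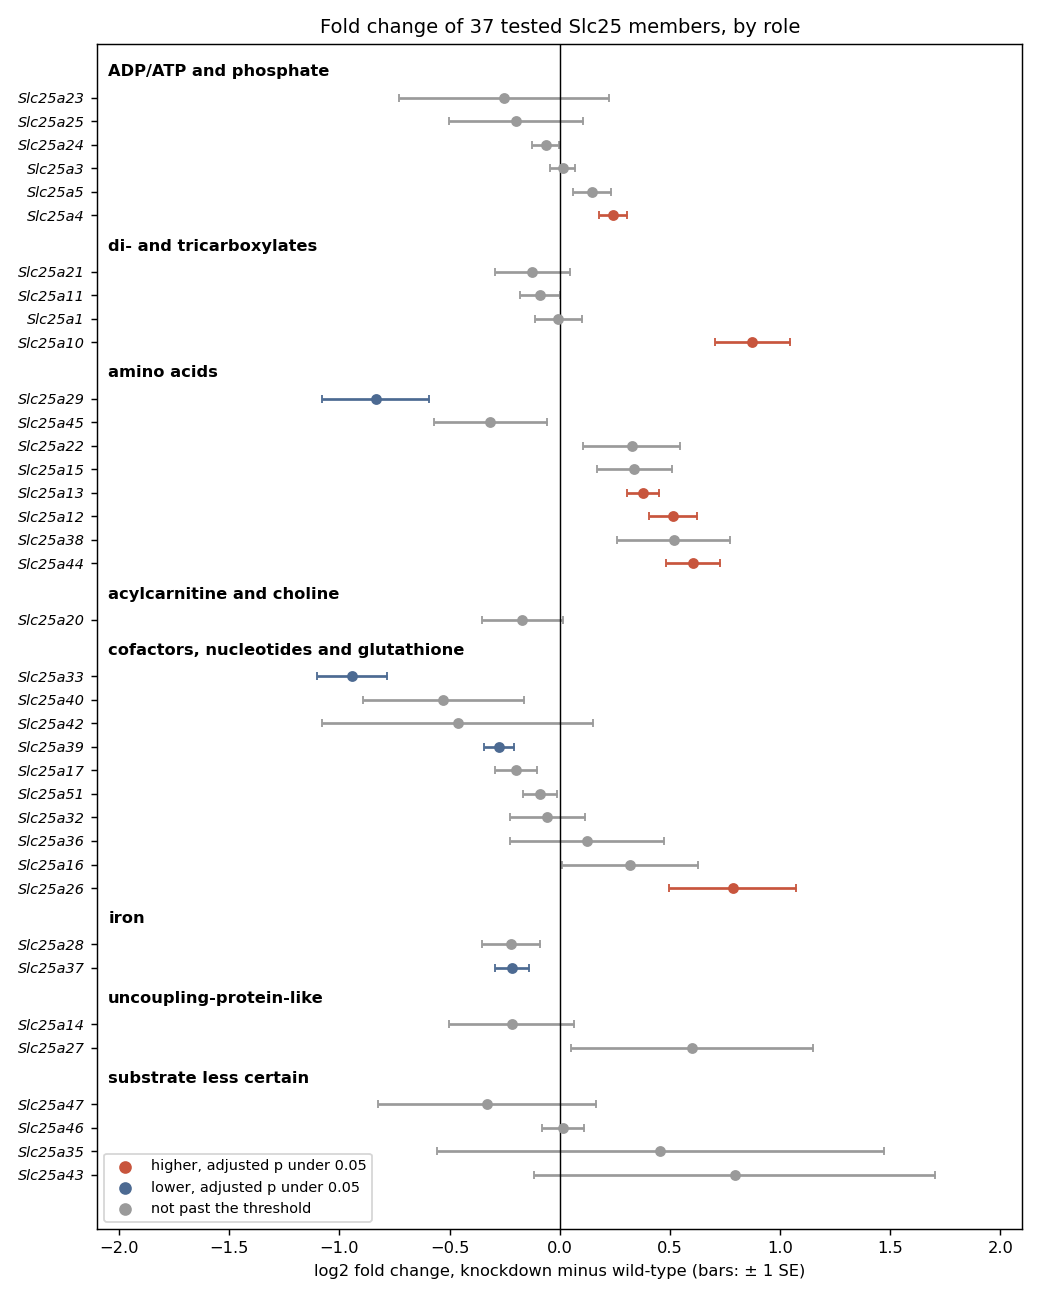
Log2 fold change (knockdown minus wild-type, horizontal axis) with ± 1 SE of 37 of the 38 tested Slc25 members, grouped by what they carry. The 6 red members are higher and the 4 blue members lower at an adjusted p under 0.05, and the grey members did not pass, with the widest bars on those of few counts.

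Levels of different members were compared per length, as RPKM, CPM divided by the exon length in kilobases. This length is the union of all annotated exons, and the lengths of the transcripts present were not measured. It was 5550 bases for Slc25a3 and 2353 for Slc25a4, whose order reverses in CPM (698 and 469 in wild-type). The order below thus depends on these lengths. By RPKM the highest in wild-type was Slc25a4, a muscle-type ADP/ATP exchanger, at 199 ± 16.9 RPKM (SD, n = 4). It was followed by the phosphate carrier Slc25a3 at 126 ± 4.42, the glutathione carrier Slc25a39 at 112 ± 10.04 and the calcium-regulated ATP-Mg/phosphate carrier Slc25a24 at 107 ± 1.90 RPKM. The levels of Slc25a39 and Slc25a24 lay within their spread of each other. Next came Slc25a5, the ADP/ATP exchanger of dividing cells, at 75.0 ± 7.92 RPKM, and then Slc25a13 at 36.7 ± 1.43 and Slc25a11 at 35.6 ± 1.41 RPKM, which again did not differ beyond their spread. The lowest tested member was Slc25a35, at 0.13 RPKM. In CPM, the 4 genes Slc25a3, Slc25a4, Slc25a24 and Slc25a39 held 61.4 to 64.1% of the family's total in wild-type and 60.9 to 62.6% in knockdown. The family's summed level was 2850 to 3068 CPM in wild-type and 2998 to 3039 CPM in knockdown, so the groups overlapped. As a share of all counts, before the TMM factors, it was 0.28 to 0.30% in wild-type and 0.31 to 0.32% in knockdown, without overlap. A direction for the summed family thus depends on the scaling.

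**Figure D2:**
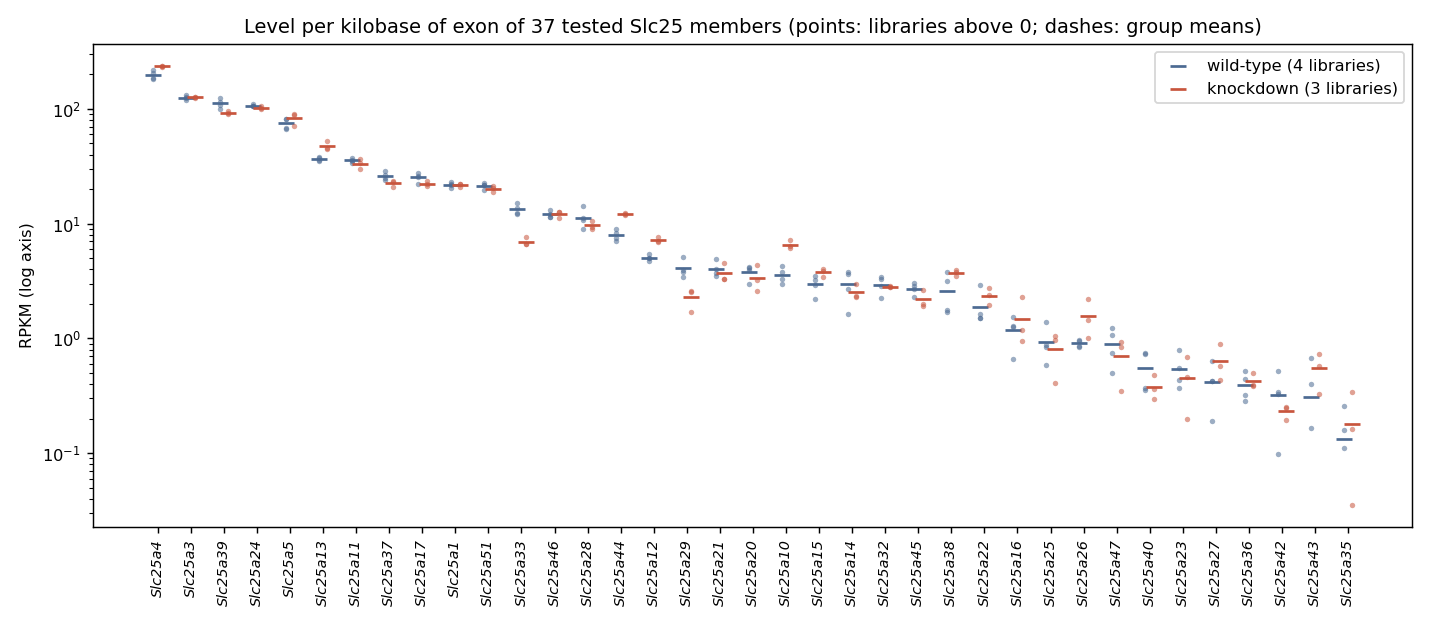
Level per kilobase of exon (RPKM, log axis) of 37 of the 38 tested members, ordered by the wild-type mean, with a point for each library above 0 and a dash for each group mean. Levels run from Slc25a4, near 199 RPKM in wild-type, to Slc25a35, near 0.13 RPKM, and Slc25a10 and Slc25a33 are among the members whose groups stand apart.

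The other 9 members were below the filter. Slc25a31 (an ADP/ATP exchanger of germ cells), Slc25a34, Slc25a41 and Slc25a48 had 0 counts in all 7 libraries, which allows up to 3 counts in a library, or 0.16 to 0.20 CPM. This limit covers counting error only. Slc25a2, an ornithine carrier, had 1 count in all. Slc25a53 had 12 counts over 3 libraries, Slc25a18, a glutamate carrier, had 18 over 3 and Slc25a54 had 28 over 3. Slc25a30, a relative of the uncoupling proteins, had 12, 7, 11 and 2 counts in wild-type and 0, 3 and 1 in knockdown. These 9 were not compared between groups.

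Of the 6 tested carriers of adenine nucleotides and phosphate, 1 rose. Slc25a4 (chromosome 8, 46206797 to 46211284, minus strand, GRCm38) was at 434, 518, 485 and 440 CPM in wild-type and at 558, 546 and 557 CPM in knockdown. Each knockdown library was above every wild-type library, and the rise was small (log2 fold change 0.24, SE 0.064, adjusted p = 0.004, edgeR). Slc25a5, which also exchanges ADP for ATP, was at 111 to 135 CPM and 117 to 149 CPM, with overlap, and did not pass (0.15, SE 0.087, adjusted p = 0.219). It passed without Ddx54 knockdown replicate 1 (0.25, adjusted p = 0.0482). A pseudogene that carries the symbol of Slc25a5 is annotated, and since the treatment of multiply matching reads is not given, its count is uncertain. Slc25a3, which brings phosphate to ATP synthase, was at 698 ± 24.5 CPM (SD, n = 4) and 704 ± 8.37 CPM (SD, n = 3). Slc25a24 was 367 ± 6.53 and 351 ± 8.96 CPM and did not pass (adjusted p = 0.468), although its groups did not overlap. Its relatives Slc25a23 and Slc25a25 were at 2.84 and 7.25 CPM in wild-type and did not pass.

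Slc25a10 showed the largest rise of the family. It encodes the dicarboxylate carrier, which exchanges malate or succinate for phosphate, and lies on chromosome 11 at 120491840 to 120499187, plus strand. Its level was 14.7, 10.4, 13.1 and 11.4 CPM in wild-type and 24.7, 22.1 and 21.4 CPM in knockdown. All 3 knockdown libraries were well above the highest wild-type library. The log2 fold change was 0.87 (SE 0.17, adjusted p = 0.000148, edgeR), or 1.83-fold. The other 3 carriers of carboxylates did not pass. These were the citrate carrier Slc25a1 at 47.4 and 47.2 CPM, the oxoglutarate carrier Slc25a11 at 75.4 and 70.9 CPM, and the oxodicarboxylate carrier Slc25a21 at 19.8 and 18.1 CPM, given as wild-type and knockdown means.

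Among the 8 tested amino acid carriers, 3 rose and 1 fell. The mitochondrial aspartate/glutamate carriers Slc25a12 (aralar) and Slc25a13 (citrin) export aspartate from the matrix as a step of the malate-aspartate shuttle. Slc25a12 (chromosome 2, 71271063 to 71367749, minus strand) was at 40.3, 36.6, 35.03 and 36.9 CPM in wild-type and at 56.1, 51.3 and 52.1 CPM in knockdown. Every knockdown library exceeded every wild-type library (log2 fold change 0.51, SE 0.11, adjusted p = 0.000449, edgeR).

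Slc25a13 (chromosome 6, 6041218 to 6217173, minus strand) was at 137, 133, 141 and 146 CPM in wild-type and at 202, 170 and 172 CPM in knockdown. It rose by a smaller amount (0.38, SE 0.074, adjusted p = 0.000148, edgeR), with knockdown replicate 1 above the other 2. Slc25a44, which imports branched-chain amino acids, lies on chromosome 3 at 88410498 to 88425139, minus strand. It was at 25.3, 31.99, 29.9 and 27.1 CPM in wild-type and at 43.2, 42.5 and 44.8 CPM in knockdown. The knockdown libraries lay close together and apart from wild-type (0.61, SE 0.12, adjusted p = 0.000227, edgeR).

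Slc25a29, a carrier of basic amino acids, moved the other way. On chromosome 12 at 108825873 to 108835883, minus strand, it was at 8.88, 9.92, 10.3 and 13.4 CPM in wild-type and at 6.74, 6.68 and 4.42 CPM in knockdown. The groups did not overlap, and the fall was -0.84 (SE 0.24, adjusted p = 0.00799, edgeR). Knockdown replicate 3 was the lowest, and without Ddx54 knockdown replicate 3 the call was lost (-0.67, adjusted p = 0.0725). The ornithine carrier Slc25a15 (0.34, adjusted p = 0.137), the glutamate carrier Slc25a22 (0.33, adjusted p = 0.290), the glycine carrier Slc25a38 (0.52, adjusted p = 0.136) and Slc25a45 (-0.31, adjusted p = 0.394) did not pass. Slc25a22 had 17.5 CPM in wild-type replicate 3 and 8.94 to 9.71 CPM in the other wild-type libraries, and it passed without wild-type replicate 3 (0.61, adjusted p = 0.0301). Slc25a38 was split within wild-type, at 4.69, 8.69, 4.84 and 10.4 CPM, against 9.63 to 10.7 CPM in knockdown, and passed without wild-type replicate 4 (0.76, adjusted p = 0.0359).

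Of the 11 carriers of cofactors, nucleotides and glutathione, all tested, 2 fell and 1 rose. Slc25a33 fell most in the family. It carries pyrimidine nucleotides into mitochondria, where they serve mitochondrial DNA and RNA synthesis, and lies on chromosome 4 at 149744036 to 149774277, minus strand. Its level was 28.8, 25.9, 23.3 and 23.0 CPM in wild-type and 12.6, 12.4 and 14.4 CPM in knockdown. The groups were far apart, and the knockdown mean was 52.04% of the wild-type mean (log2 fold change -0.94, SE 0.16, adjusted p = 2.16e-05, edgeR). Slc25a36, the other pyrimidine nucleotide carrier, was at 3.76 ± 1.03 CPM (SD, n = 4) and 4.08 ± 0.60 CPM (SD, n = 3) and did not pass (adjusted p = 0.836).

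Slc25a39, needed for glutathione import into mitochondria, lies on chromosome 11 at 102402985 to 102407946, minus strand. It was at 318, 341, 299 and 276 CPM in wild-type and at 263, 254 and 249 CPM in knockdown. The groups did not overlap and the fall was small (-0.27, SE 0.069, adjusted p = 0.00234, edgeR). Its paralog Slc25a40 was at 4.59 and 3.18 CPM on average and did not pass (-0.53, adjusted p = 0.308).

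Slc25a26, which brings S-adenosylmethionine, the methyl donor, into mitochondria, lies on chromosome 6 at 94500331 to 94604672, plus strand. It was at 4.58, 4.01, 4.12 and 4.68 CPM in wild-type and at 4.89, 10.5 and 7.03 CPM in knockdown. The rise (0.78, SE 0.29, adjusted p = 0.0392, edgeR) rested on knockdown replicate 2, and it was 0.45 (adjusted p = 0.397) without it. Leaving out knockdown replicate 3 also ended the call (adjusted p = 0.0756), as did leaving out any 1 wild-type library (adjusted p from 0.0503 to 0.0711). Exons of Slc25a26 overlap Lrig1 on the other strand, and the strand setting of the counting is not given, so their reads cannot be told apart.

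The peroxisomal carrier Slc25a17 was at 72.7 ± 6.59 CPM (SD, n = 4) and 63.3 ± 2.82 CPM (SD, n = 3, adjusted p = 0.121), and passed without wild-type replicate 4 (-0.26, adjusted p = 0.0454). The NAD carrier Slc25a51 (-0.09), the folate and FAD carrier Slc25a32 (-0.06) and the coenzyme A carriers Slc25a16 (0.32) and Slc25a42 (-0.46) did not pass, with adjusted p from 0.439 to 0.846 (edgeR).

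**Figure D3:**
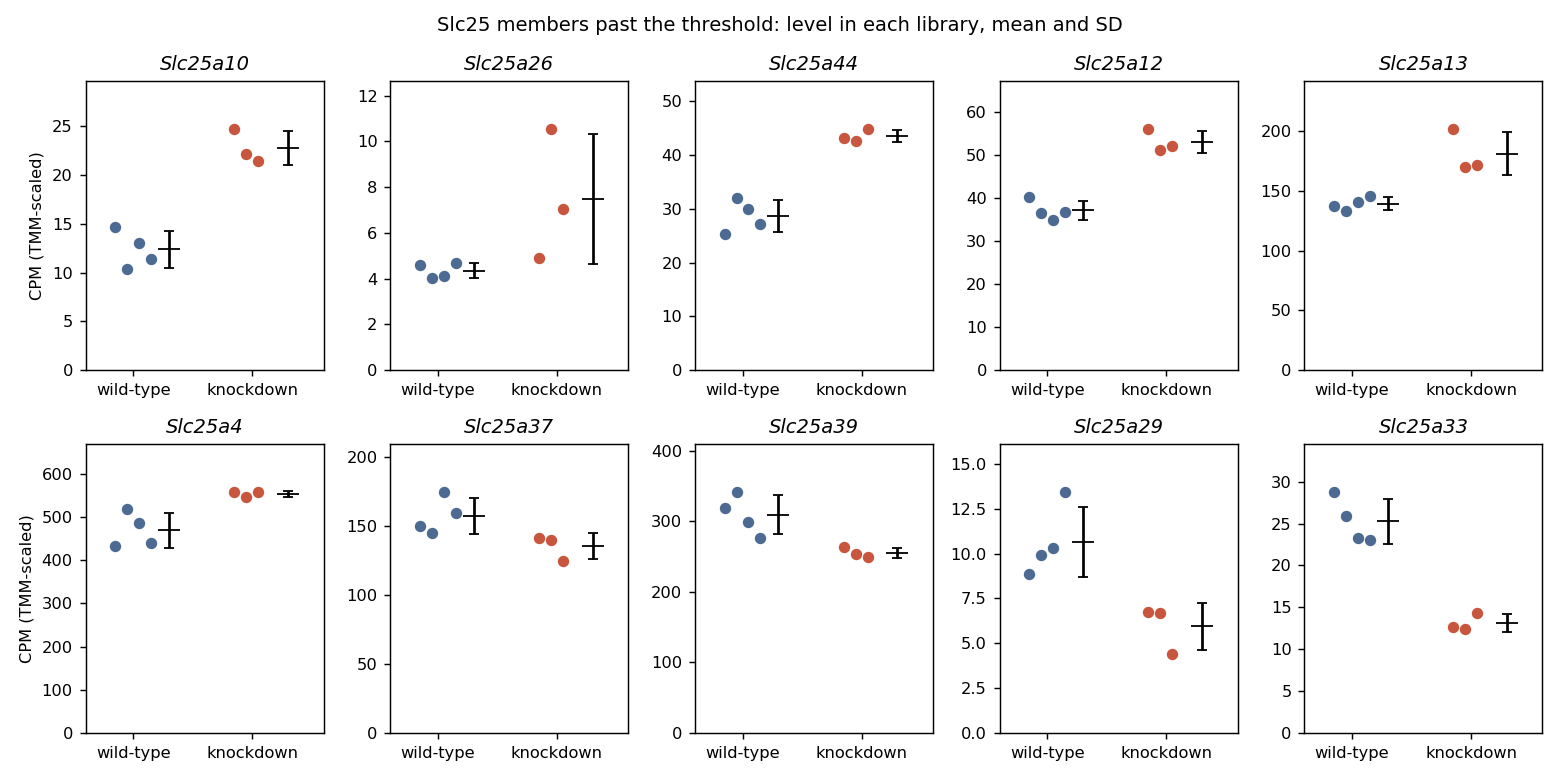
Level (CPM, vertical axes from 0) of the 10 changed Slc25 members in each of the 4 wild-type (blue) and 3 knockdown (red) libraries, with the mean and SD beside the points. In every panel the groups stand apart, widely for their level in Slc25a10 (at most 14.7 against at least 21.4 CPM) and in Slc25a33 (at least 23.0 against at most 14.4 CPM), while in Slc25a26 the lowest knockdown library, at 4.89 CPM, is close to the highest wild-type library, at 4.68 CPM.

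Both mitochondrial iron importers were tested. Slc25a37 (mitoferrin 1, chromosome 14, 69241848 to 69285112, minus strand) was at 150, 145, 175 and 159 CPM in wild-type and at 142, 139.9 and 125 CPM in knockdown. The groups were separate by a narrow margin, and the log2 fold change was -0.22 (SE 0.077, adjusted p = 0.0313, edgeR). The call was lost without wild-type replicate 3 (-0.16, adjusted p = 0.127) or 4 (-0.21, adjusted p = 0.062). It was lost as well without Ddx54 knockdown replicate 2 (-0.24, adjusted p = 0.0574) or 3 (-0.16, adjusted p = 0.210). Slc25a28 (mitoferrin 2) was at 42.3 ± 8.20 CPM (SD, n = 4) and 36.3 ± 3.05 CPM (SD, n = 3), with nearly the same fold change (-0.22, SE 0.13, adjusted p = 0.223) and a larger error. Antisense genes are annotated over Slc25a37, Slc25a33, Slc25a10 and Slc25a23, so some of their counts may come from the other strand. The same limit holds for Slc25a11, Slc25a21, Slc25a25 and Slc25a35. Their exons overlap the tested genes Rnf167, Pax9, Naif1 and Rangrf, in that order, on the other strand. Exons of Slc25a46 overlap B930094E09Rik, which was not tested, on the other strand as well. The ratio of Slc25a10 to Slc25a11 below thus carries this limit in both members. The ratios with Slc25a33, Slc25a37, Slc25a23 or Slc25a25 carry it through that member.

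The remaining members did not pass. The acylcarnitine carrier Slc25a20, which admits fatty acids for oxidation, was at 18.5 ± 2.73 CPM (SD, n = 4) and 16.4 ± 4.30 CPM (SD, n = 3, adjusted p = 0.536). Slc25a46, an outer membrane protein of mitochondrial shape, was at 65.3 ± 4.70 CPM (SD, n = 4) and 65.95 ± 4.05 CPM (SD, n = 3). The uncoupling-like Slc25a14 and Slc25a27 and the less understood Slc25a35, Slc25a43 and Slc25a47 were at 0.49 to 6.99 CPM in wild-type. Their adjusted p-values were 0.456 to 0.785.

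Whether paralogs, or carriers of like substrates, differed in their response was tested as the log2 ratio of the 2 members in each library, with 0.5 CPM added, in the 9 of 13 listed pairs whose members were both tested. The test was an exact permutation test, two-sided, over all 35 assignments of the 7 libraries to groups of 4 and 3, which cannot give a p below 0.0286, with Benjamini-Hochberg adjustment over the 9 pairs. The ratio of Slc25a10 to Slc25a11 rose from -2.57 ± 0.23 (SD, n = 4) to -1.62 ± 0.055 log2 units (SD, n = 3), a difference of 0.95. The ratio of Slc25a33 to Slc25a36 went from 2.62 ± 0.38 to 1.58 ± 0.27 log2 units, a difference of -1.04 in the exact permutation comparison. In both pairs the groups did not overlap (exact p = 0.0286, adjusted p = 0.129). These 2 pairs were already at the smallest p, and 6 of the 9 pairs would have had to reach it for an adjusted p under 0.05. The adjusted values thus say nothing for or against a difference in a single pair.

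The ratio of Slc25a12 to Slc25a13 differed by 0.14 log2 units (exact permutation p = 0.114, adjusted p = 0.343), so that their unequal rises were not told apart. For Slc25a28 to Slc25a37 the difference was 0.01 (exact permutation p = 0.971), with an SD of 0.35 over the wild-type libraries. The other 5 pairs differed by -0.22 to 0.50 log2 units, with an exact p of at least 0.486. A p that misses the threshold does not show that 2 paralogs respond alike.

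**Figure D4:**
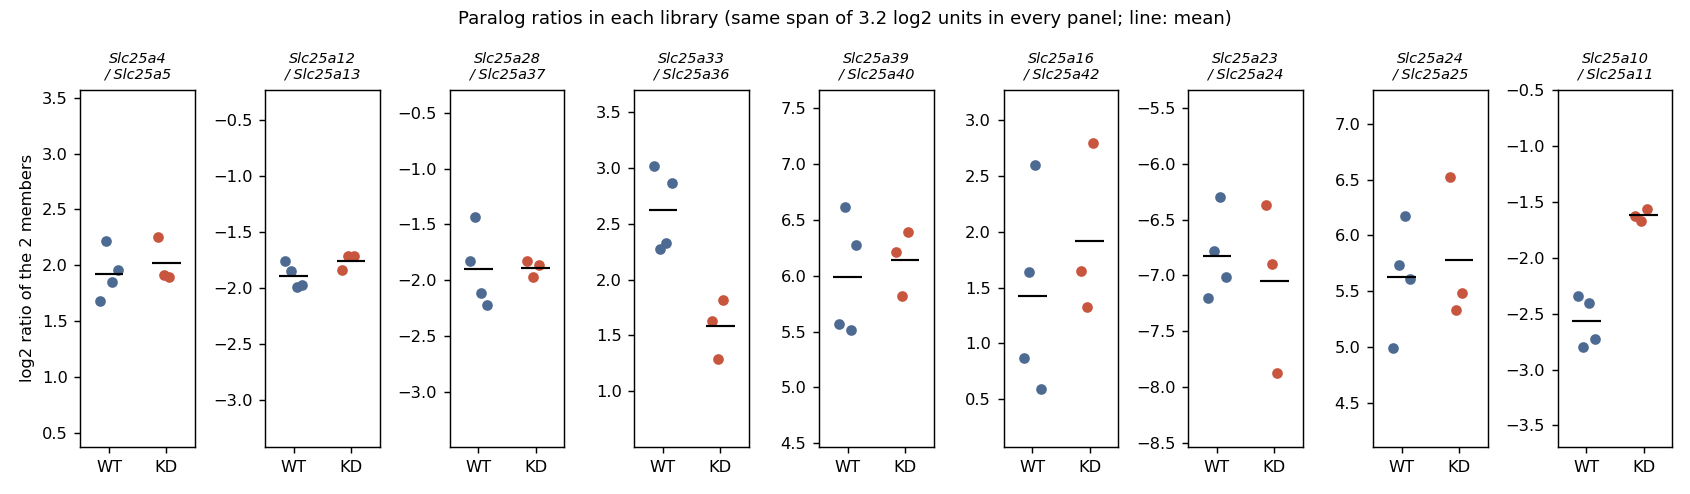
Log2 ratio of the CPM of 2 Slc25 members in each wild-type (WT, 4 libraries) and knockdown (KD, 3 libraries) library for 9 pairs, with group means as lines and the same axis span in every panel. The groups are apart for Slc25a33 over Slc25a36 (means 2.62 and 1.58) and for Slc25a10 over Slc25a11 (means -2.57 and -1.62), and overlap in the other 7 pairs.

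Genes that make, use or import what the carriers move were listed by textbook role in 12 lists. Of 136 such genes tested, 26 rose and 24 fell, together 36.8%, against 29.4% of all tested genes and 37.5% of those at 10 CPM or more. In the lists below, counts are at an adjusted p under 0.05 (edgeR), and log2 fold changes are in parentheses. By direction, 14.1% of all tested genes rose and 15.3% fell.

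Around the aspartate/glutamate carriers, 3 of the 6 tested genes of the malate-aspartate and glycerol phosphate shuttles fell and 0 rose. Mdh2, mitochondrial malate dehydrogenase, fell from 578 ± 34.1 CPM (SD, n = 4) to 386 ± 18.97 CPM (SD, n = 3), a log2 fold change of -0.58. The cytosolic aminotransferase Got1 fell less (-0.31), as did the glycerol phosphate dehydrogenase Gpd2 (-0.17). The list's median was -0.07. Of the carriers of the malate-aspartate shuttle, Slc25a12 and Slc25a13 rose, and the oxoglutarate carrier Slc25a11 did not pass (-0.09, adjusted p = 0.511, edgeR). In the list of glutamate, ornithine and proline enzymes 3 of 12 fell, 0 rose and the median was 0.01. Gpt2, the mitochondrial alanine aminotransferase, fell from 80.5 ± 8.495 to 30.5 ± 3.35 CPM (-1.40), with Aldh18a1 (-0.82) of proline synthesis and glutamate dehydrogenase Glud1 (-0.42).

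Among genes that make or use citrate, 3 of 8 rose and 2 fell, with a median of 0.14. Fasn, fatty acid synthase, rose from 91.05 ± 8.89 to 177 ± 23.2 CPM (0.96), and ATP citrate lyase Acly rose (0.36), while cytosolic acetyl-CoA synthetase Acss2 (-1.35) and isocitrate dehydrogenase Idh1 (-0.45) fell. In fatty acid entry and oxidation 3 of 12 fell and 1 rose, with a median of -0.14. Etfa (-0.51), an electron acceptor of the pathway, Acadvl (-0.40) and Acadl (-0.29), both acyl-CoA dehydrogenases, fell, and carnitine acetyltransferase Crat (0.72) rose.

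In the list of mitochondrial folate and glycine enzymes 3 of 8 fell and 2 rose, with a median of -0.11. Aldh1l2 (-0.95) and Mthfd2 (-0.63, from 533 ± 58.8 to 344 ± 7.71 CPM), enzymes of mitochondrial one-carbon metabolism, fell. Mtfmt (0.48), which formylates the initiator tRNA, and Gcsh (0.42) of glycine cleavage rose. Among iron-sulphur cluster and haem genes, 4 of 16 fell and 2 rose, with a median of -0.18. Hscb (-0.72), a co-chaperone of cluster transfer, and Alas1 (-0.49) and Alad (-0.46), the first enzymes of haem synthesis, were among those that fell.

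In the glutathione list 2 of 8 rose, with a median of 0.14. They were Gclm (0.88), the modifier subunit of glutathione synthesis, and the peroxidase Gpx1 (0.62), and 0 fell. Among genes of NAD, coenzyme A and thiamine 2 of 13 rose, pantothenate kinase Pank1 (0.84) and the thiamine transporter Slc19a2 (0.27), and 1 fell, Nmnat3 (-0.74), with a median of 0.08. Of mitochondrial nucleotide genes 3 of 11 rose, among them the mitochondrial RNA polymerase Polrmt (0.73) and the adenylate kinase Ak4 (0.53), and 1 fell, the deoxyguanosine kinase Dguok (-0.33), with a median of -0.05.

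Carriers themselves are brought to the inner membrane by small Tim chaperones and the TIM22 complex. In that import list 5 of 12 rose and 2 fell, with a median of 0.19. Timm8b (0.53), Timm22 (0.36) and Timm13 (0.30) rose and the outer membrane receptor Tomm20 (-0.42) fell. Among other mitochondrial carriers and channels 6 of 22 rose and 2 fell, with a median of -0.02. Mcu, the pore of the calcium uniporter, fell from 285 ± 20.9 to 192 ± 11.5 CPM (-0.57), while its subunit Smdt1 (0.51) and the transporter Abcb8 (0.82) rose. Ucp1, Ucp2 and Ucp3 were below the filter, with at most 0.39 CPM in any library. Of 9 transcription factors and coactivators of mitochondrial biogenesis 0 passed (edgeR), with Tfb1m (-0.51, adjusted p = 0.159) and Esrra (-0.24, adjusted p = 0.306) nearest and none at an unadjusted p under 0.05.

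Some of these calls were lost when 1 library was left out (edgeR). Without knockdown replicate 3 this held for Acadvl (adjusted p = 0.0939), and without knockdown replicate 1 for Tomm20 (adjusted p = 0.0619). Timm13 and Nmnat3 lost the call without knockdown replicate 2 or 3, with adjusted p up to 0.0846 and 0.109. Timm22, Dguok, Slc19a2 and Mtfmt lost it in 4 and Gpd2 in 5 of the 7 fits that each leave out 1 library, with adjusted p up to 0.0731, 0.126, 0.171, 0.237 and 0.143.

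**Figure D5:**
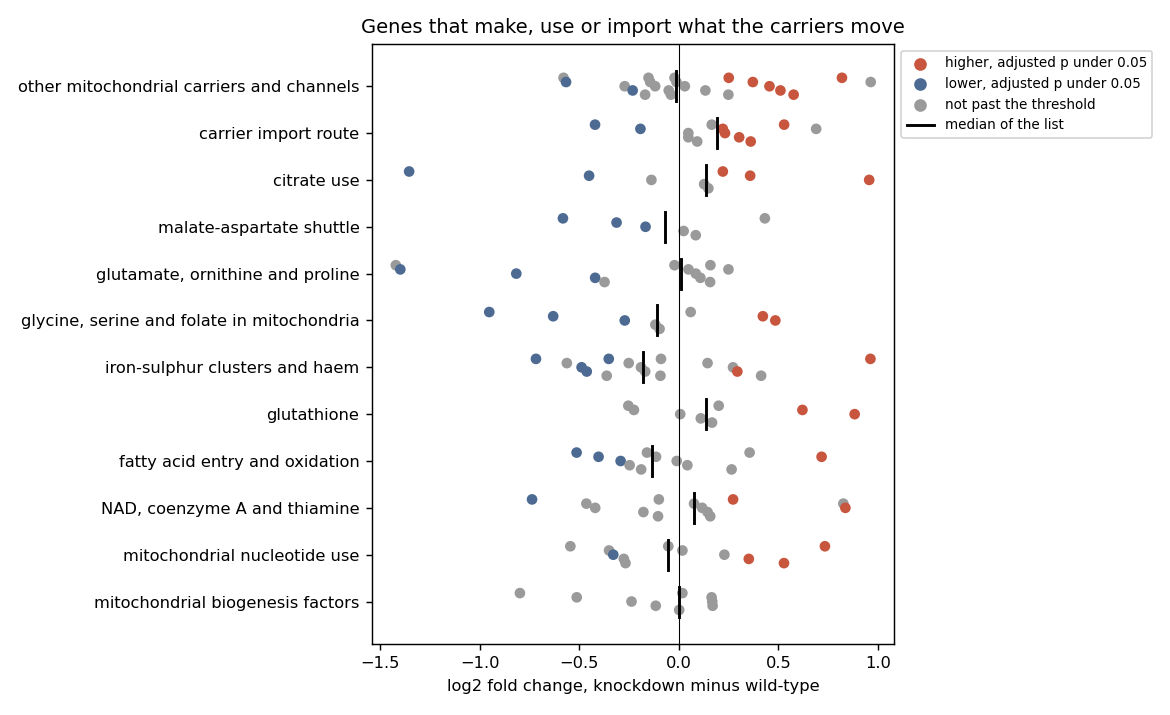
Log2 fold change (knockdown minus wild-type) of the tested genes of 12 lists that make, use or import what the carriers move, with the list median as a black line. Red and blue points passed at an adjusted p under 0.05, and most lists hold points on both sides of 0, with medians between -0.18 and 0.19.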

How the data were processed

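The authors deposited raw read counts per gene symbol for 7 libraries, and the submitters' processing notes list Trimmomatic, STAR, HTSeq and mm10 without roles or versions. The sources used here give neither the annotation nor the strand setting. The tests used edgeR 4.0.16 (R 4.3.3), with filterByExpr, TMM factors, a robust quasi-likelihood test of knockdown against wild-type without covariates, and Benjamini-Hochberg adjustment over 11594 genes. Each SE is approximate, taken from the log2 fold change and the F statistic. RPKM uses the union of exons in GENCODE M21 (GRCm38). The test was checked on simulated counts of 11351 genes. It recovered 44.3% of 61 changes of 0.5 log2 units and 88.4% of 69 changes of 1 unit. Of 68 changes of 2 units it recovered 92.6%, and it called 0.0448% of unchanged genes. Far fewer genes changed there than were called in the data, so these shares need not hold here. Libraries of a group differed beyond sampling noise (chi-square per degree of freedom 8.53 to 16.9). Members and lists were chosen with earlier results of these data known. Every changed member was named, with values per library required for changes of at least 0.5, and up to 4 changed genes with the largest change per partner list, or the 2 with the smallest p. The alternatives were RLE and upper-quartile factors, 2 other count filters, DESeq2 1.42.0, limma-voom (limma 3.58.1), a replicate block, thinning to equal depth, a correction for GC content and length, and leaving out each library. Proteins were not used here, and 1 member and some listed genes are not reported by name.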

Additional observations from a re-analysis of the deposited data

Results flagged for a closer look

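Within the 4 wild-type libraries, the 38 tested members were searched for a library far from the other 3, and 1 was found, where chance gives about 1.9. Slc25a22, the glutamate carrier, was at 17.5 CPM in wild-type replicate 3 and at 8.94 to 9.71 CPM in the others.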

How the results depend on the processing

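Of the 10 changed members, 7 kept direction and call under all 16 alternatives: Slc25a4, Slc25a10, Slc25a12, Slc25a13, Slc25a33, Slc25a39 and Slc25a44. Slc25a10 ranged from 0.80 to 0.97 and Slc25a33 from -1.01 to -0.88 log2 units. Slc25a26, Slc25a29 and Slc25a37 lost the call under 8, 1 and 5 alternatives, among them limma-voom for Slc25a26 (0.72, adjusted p = 0.0673). Leaving out 1 library gave 5 to 7 members higher and 2 to 4 lower, with 2 lower without Ddx54 knockdown replicate 3. Of all tested genes, 22.2 to 28.7% were called in these fits, against 29.4% with all libraries. Without Ddx54 knockdown replicate 3, 17.9% of tested members and 22.2% of all tested genes were called. Of the 28 members not called, 5 passed under some alternative. The median stayed between -0.06 and -0.01. Libraries of the same replicate number shared no visible deviation (correlations from -0.03 to -0.01). For libraries of different numbers the correlations were from -0.02 to 0.02. The labels do not say whether libraries of the same number were handled together. Replicate 4 exists only in wild-type, so in the replicate block that library adds nothing to the comparison of groups. With the block 6 members were higher and 3 lower. Slc25a26 (0.76, adjusted p = 0.101) and Slc25a37 (-0.21, adjusted p = 0.104) lost the call and Slc25a38 gained it (0.80, adjusted p = 0.0300). The same happened without wild-type replicate 4 and without a block (edgeR adjusted p = 0.0519, 0.0620 and 0.0359). Effects of the block and of that library's loss were not separated. Of the partner genes, 23 were higher and 18 lower with the block, against 26 and 24 without it, and Crat lost the call (0.57, edgeR adjusted p = 0.0617). Over all tested genes the block gave 1375 higher and 1487 lower, or 24.7% called, against 29.4% without it. The share of tested members called with the block was 23.7%. The exact test of the paralog ratios was too small to pass after adjustment, so its settings say nothing about stability. The cause of these changes was not tested. Members below 10 CPM had larger errors, and the part of depth in them was not separated.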
